A study of Homo sapiens with 6 samples.

Results

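Kinesins and centromere proteins were followed in the human glioblastoma cell line U373MG after exposure to marine-derived tetrahydroisoquinoline alkaloids. The members were the genes whose symbol in the probe annotation is KIF or KIFC with a number, or CENP with 1 letter, and that are read by a probe carrying that symbol alone. They came to 59 of the 18417 genes on the array, namely 13 kinesins of mitosis, 17 kinesins of cargo transport, 11 other kinesins and 18 CENP genes. The cells were exposed for 24 hours to ET-770 (ecteinascidin-770) at 4.83 nM, to its pyridinecarbonyl derivative ET-770-DR at 1.70 nM or to RM (renieramycin M) at 3.10 nM. Each dose was the concentration that halved viability for that compound in a treatment longer than the 24 hours used for the arrays. The cells of each control were exposed to the vehicle, DMSO, at the equivalent concentration for 24 hours. There were 3 independent experiments, each with 1 array of compound-treated cells and 1 array of DMSO-treated cells, so that 6 Human Gene 1.0 ST arrays were compared. All cultures were of 1 line kept in medium with serum, and no untreated culture or other line was compared here.

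Kinesins are motor proteins that burn ATP to walk along microtubules or to take microtubules apart. Transport kinesins carry vesicles, endosomes and mitochondria toward the cell edge throughout the life of the cell. Mitotic kinesins build the spindle, align chromosomes and finish cell division, and their genes are read mostly in G2 and mitosis. CENP genes encode proteins of the centromere, most of them subunits of the constitutive centromere-associated network, a set of small complexes on which the kinetochore is assembled. Ecteinascidins bind in the minor groove of DNA and alkylate guanine, and renieramycins are related quinones.

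Stretches of DNA before the starts of 6 members are shown first. They are examples picked by hand, and the shares of motifs over all members with a promoter are given further below. The first 3 are the whole gap between a CENP gene and a neighbour that is read in the opposite direction, a pair of genes called head to head. CENPQ shares its gap with MMUT, CENPP with NOL8 and CENPO with PTRHD1. The other 3 are the last 100 bases before the start of 2 mitotic kinesins and of the transport kinesin KIF13A. They are RefSeq sequences of GRCh38.p14, written 5′ to 3′ on the strand of the member, at chr6:49463254-49463369, plus strand, chr9:92325351-92325467, plus strand, chr2:24793392-24793424, plus strand, chr16:29790651-29790750, plus strand, chr6:33391723-33391822, plus strand, and chr6:17987636-17987735, minus strand. Capitals mark a CCAAT box or a CHR, an element of cell cycle promoters, on either strand.
CENPQ: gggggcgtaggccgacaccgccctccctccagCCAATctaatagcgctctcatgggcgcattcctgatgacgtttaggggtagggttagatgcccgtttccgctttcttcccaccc
CENPP: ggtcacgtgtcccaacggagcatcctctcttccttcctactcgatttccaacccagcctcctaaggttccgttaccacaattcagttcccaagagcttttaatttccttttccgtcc
CENPO: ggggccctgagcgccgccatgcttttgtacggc
KIF22: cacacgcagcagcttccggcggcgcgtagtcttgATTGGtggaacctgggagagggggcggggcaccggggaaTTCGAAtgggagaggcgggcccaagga
KIFC1: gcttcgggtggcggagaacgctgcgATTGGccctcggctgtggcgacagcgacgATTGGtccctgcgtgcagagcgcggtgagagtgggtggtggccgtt
KIF13A: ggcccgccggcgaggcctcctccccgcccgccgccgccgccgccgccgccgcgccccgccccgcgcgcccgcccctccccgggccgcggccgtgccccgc
The gap of CENPQ holds 1 CCAAT box, which starts 84 bases before the start of the gene. KIF22 holds a CCAAT box, read as ATTGG on this strand, 66 bases before its start and a CHR 27 bases before it. KIFC1 holds 2 CCAAT boxes, at 75 and 46 bases. The stretches of CENPP, CENPO and KIF13A hold none of the letters searched, and that of KIF13A is made of G and C at 95% of its bases.

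The values are signals in log2 units, computed by the authors with robust multiarray averaging (RMA). A change is the log2 signal of the compound-treated cells minus that of the DMSO-treated cells of the same experiment, so that 1 stands for 2-fold. Single compounds had 1 array per arm, so their values carry neither an error nor a p-value. What the 3 compounds had in common was tested by limma over 18417 genes, with experiments as blocks (n = 3 pairs), and "rose" and "fell" are written only of genes with a Benjamini-Hochberg adjusted p under 0.05. In this test the compounds serve as replicates of each other, and the standard errors (SE) are moderated by limma. The doses differ between compounds, and their values are set side by side without a comparison. The median change of all genes was 0.02 for ET-770, -0.03 for ET-770-DR and 0.12 for RM. The cells are measured in bulk, so that a smaller share of cells in mitosis and less of an RNA in each cell cannot be told apart.

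The arrays were checked against markers of the labelled cells. Of 10 astrocytic and glioma markers, VIM, CD44 and SOX2 had log2 signals from 10.5 to 13.6 on all arrays, GFAP from 6.66 to 7.72, and AQP4 lay with the olfactory receptor genes, whose 95th percentile of mean signal, 6.14, was taken as a gauge of background. The summed linear signal of these markers ran from 21382 to 34819 on the DMSO arrays and from 15896 to 26558 on the compound arrays. Of the 10, 5 fell and 0 rose, S100B by 1.04 and FABP7, a fatty acid binding protein of radial glia, by 0.84. Of 17 markers of microglia, endothelium, oligodendrocytes and neurons, CD68, a lysosomal protein, rose and MBP, a myelin protein, fell, and 10 had signals at background, PTPRC and PECAM1 among them. The part of these markers in the changes of the members was not tested.

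Among the 59 members, 12 rose and 6 fell in the shared response, and 41 did not pass the test. Over all genes 13.1% rose, 11.2% fell and 24.3% passed in either direction. Of the 6 that fell, 4 were carriers of cargo, and of the 12 that rose, 4 were mitotic kinesins, 7 were CENP genes and 1 was KIF7. The median change was 0.24 for mitotic kinesins, 0.00 for transport kinesins, 0.05 for other kinesins and 0.38 for CENP genes, beside 0.03 for all genes. The shares of all genes that passed, here and below, include genes at background, which seldom pass. Of 341 olfactory receptor genes 1.17% passed, whereas 55 of the 59 members lay at or above the background gauge. In a fit without the dimmest genes 4731 of 13812 genes passed, and of 56 members 14 rose and 6 fell. Members were not compared with genes of matched signal, so an excess of calls among them is not shown. The direction was the same with all 3 compounds in 34 members, which were higher than DMSO in 22 (all genes: 29.6%) and lower in 12 (all genes: 20.6%). In 2 members, KIF2C and CENPO, every compound array lay above every DMSO array, as in 3.62% of all genes. In 5 members, KIF13A, KIF13B, KIF16B, CENPP and CENPE, every compound array lay below every DMSO array, as in 5.34% of all genes. The deposited signals are offset between experiments. The median of all genes on the DMSO arrays was 7.975, 7.283 and 7.401 in the ET-770, ET-770-DR and RM experiments. Overlap between the groups depends on this offset too. So does the place of a single array against the background gauge, which rests on means over all arrays.

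**Figure D1:**
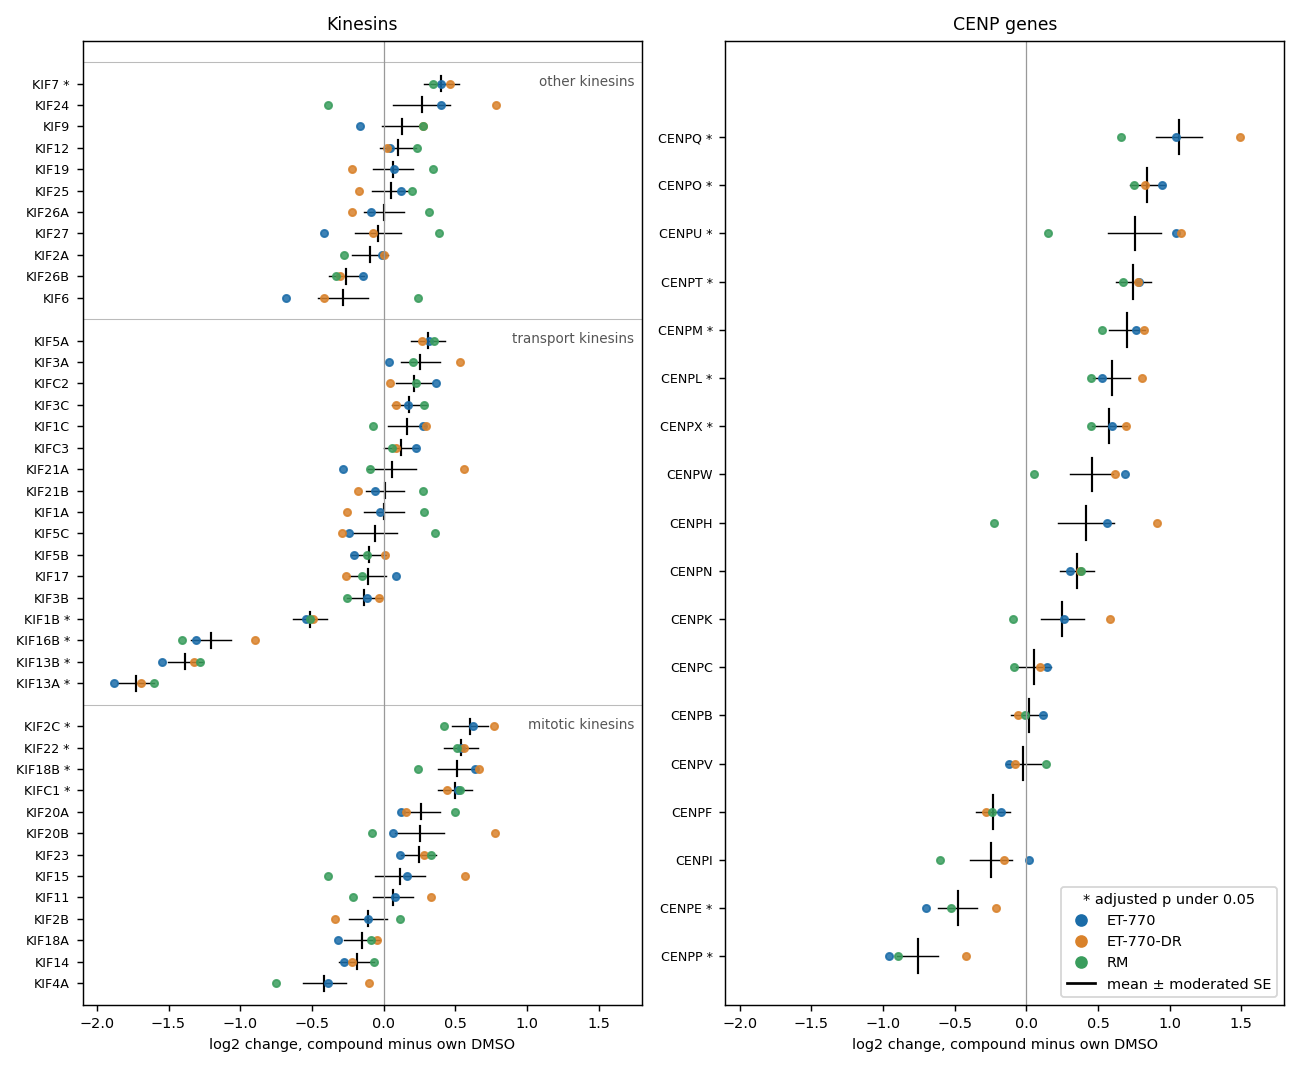
Change of each of the 59 members on the log2 scale, for kinesins (left) and CENP genes (right). Dots are single compounds against their own DMSO array, vertical ticks the mean over the 3 experiments, horizontal bars its moderated SE, and asterisks mark an adjusted p under 0.05. The 4 transport kinesins that fell stand apart at the left, from -1.73 for KIF13A to -0.52 for KIF1B, and the largest mean among the CENP genes is that of CENPQ at 1.07.

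Of the 17 transport kinesins, 4 fell (23.5%, beside 11.2% of all genes), 0 rose (13.1% of all genes) and 13 did not pass the test. In either direction 23.5% passed, beside 24.3% of all genes. The 4 were KIF13A, KIF13B, KIF16B and KIF1B, which all belong to the kinesin-3 family, motors that haul membrane vesicles over long distances. All 4 are genes over 100 kb, and 47.7% of all genes of that length fell. KIF13A, which brings recycling endosomes to the cell edge, had log2 signals of 9.96, 9.07 and 9.76 in DMSO-treated cells of the ET-770, ET-770-DR and RM experiments and of 8.08, 7.38 and 8.16 in the compound-treated cells. All compound arrays lay below all DMSO arrays. In the order of the experiments KIF13A was at 0.272-fold, 0.309-fold and 0.329-fold of its DMSO signal, and its mean change was -1.73 (SE 0.12, adjusted p = 2.1e-05). It was the only member that was over 3-fold lower with any of the compounds, and no member was over 3-fold higher. In the same order 2.15%, 2.12% and 1.36% of all genes were over 3-fold lower and 0.233%, 0.51% and 0.0434% over 3-fold higher, which makes 2.38%, 2.63% and 1.4% in either direction. KIF13B, the closest relative of KIF13A, had log2 signals of 8.76, 8.06 and 7.97 with DMSO and 7.21, 6.74 and 6.68 with the compounds. It was at 0.343-fold, 0.400-fold and 0.411-fold, and its mean change was -1.38 (SE 0.12, adjusted p = 6.6e-05). KIF16B, a motor of early endosomes, had 7.68, 6.89 and 7.19 with DMSO and 6.37, 5.99 and 5.78 with the compounds, the last 2 of them under the background gauge, so that the size of its fall is not well measured. Its mean change was -1.21 (SE 0.14, adjusted p = 0.00027). KIF1B, which carries mitochondria and the precursors of synaptic vesicles, fell less, at 0.688-fold, 0.710-fold and 0.700-fold (mean change -0.52, SE 0.12, adjusted p = 0.011), and did not pass without the ET-770 experiment (mean change -0.50, adjusted p = 0.15). Its log2 signals were 10.0, 9.08 and 8.98 with DMSO and 9.48, 8.58 and 8.47 with the compounds. The groups overlapped, on arrays that are offset between experiments, although each pair moved by about the same amount.

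The remaining kinesin-3 carriers did not pass. KIF1A, the neuronal carrier of synaptic vesicle precursors, had a mean change of 0.00 (SE 0.14) at signals from 6.02 to 6.84, close to background. KIF1C, which moves integrins and dense-core vesicles, was at 1.21-fold, 1.23-fold and 0.948-fold. The conventional kinesin heavy chains did not pass either. KIF5B, the ubiquitous one, was at 0.866-fold, 1.01-fold and 0.923-fold at log2 signals from 11.4 to 12.0. KIF5A, one of the neuronal heavy chains, was read by 2 probes and was higher than DMSO in all 3 experiments, at 1.24-fold, 1.2-fold and 1.28-fold (adjusted p = 0.093). Its probes gave mean changes of 0.31 and 0.31. The motor subunits of kinesin-2, which moves cargo in cilia and melanosomes, had mean changes of 0.26 for KIF3A, -0.13 for KIF3B and 0.18 for KIF3C, none past the test. KIF21A, which restrains microtubule growth at the cell edge, was at 0.823-fold, 1.47-fold and 0.937-fold. KIF21B, its neuronal relative, had a mean change of 0.01 (SE 0.13). Of the rest, KIFC2 and KIFC3 were above DMSO with every compound, with mean changes of 0.21 and 0.12, while KIF17 and KIF5C had mean changes of -0.11 and -0.06.

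**Figure D2:**
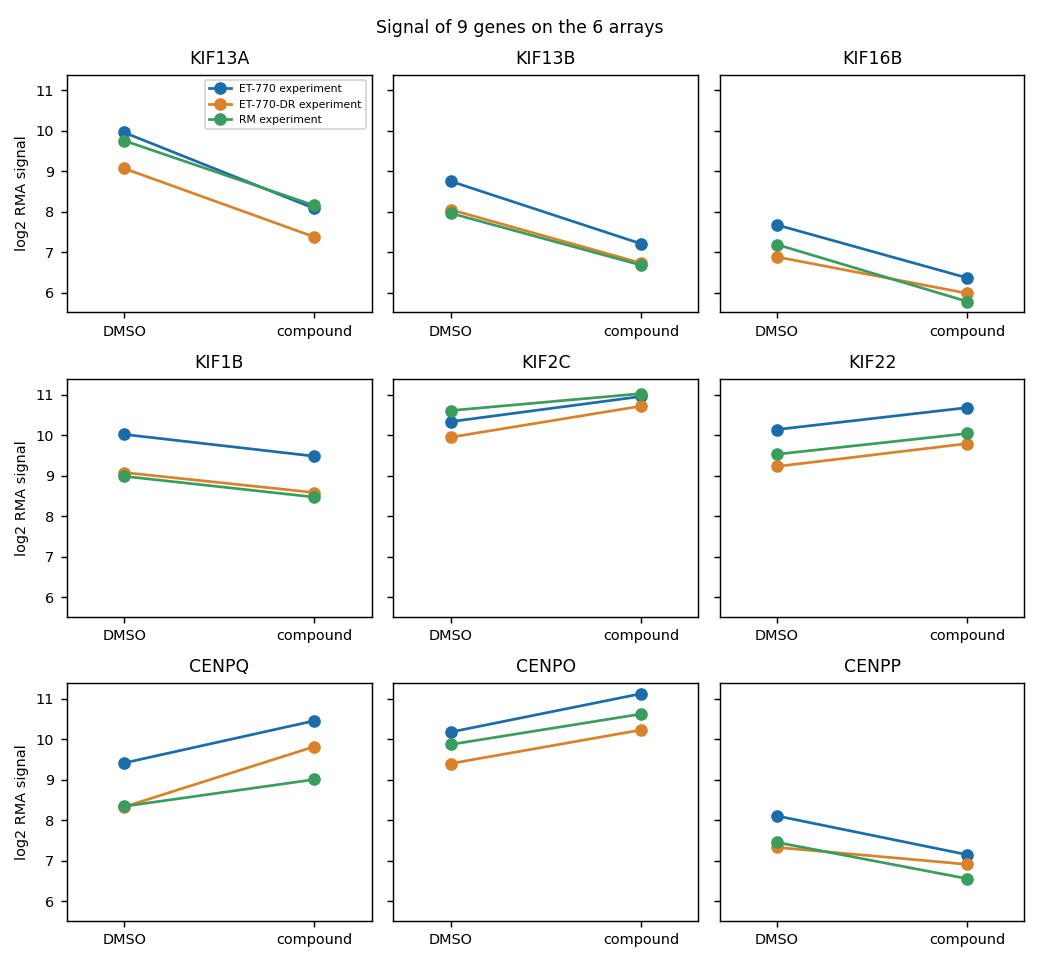
RMA signal on a log2 scale of 9 members on the 6 arrays, where each line joins the DMSO array and the compound array of one experiment. The lines of KIF13A, KIF13B, KIF16B, KIF1B and CENPP run down and those of KIF2C, KIF22, CENPQ and CENPO run up in all 3 experiments.

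Of the 13 mitotic kinesins, 4 rose, 0 fell and 9 did not pass the test, beside 13.1% of all genes that rose. Without the ET-770 experiment 0 of the 13 passed, and 6 did without the RM experiment. Of all 18417 genes 2705 and 6141 passed in these fits, in that order, beside 4471 with all experiments. The 4 that rose with all experiments were KIF2C, KIF22, KIF18B and KIFC1. In the fit without the ET-770 experiment their mean changes were 0.59, 0.54, 0.45 and 0.49 in that order. The SE was 0.233 for each of them there, larger than with all experiments. KIF2C, which takes microtubules apart at the centromere and corrects wrong attachments, had log2 signals of 10.3, 9.95 and 10.6 with DMSO and 11.0, 10.7 and 11.0 with the compounds. It was at 1.54-fold, 1.70-fold and 1.34-fold (mean change 0.60, SE 0.13, adjusted p = 0.0073). KIF22, a chromokinesin that pushes chromosome arms toward the spindle equator, was at 1.45-fold, 1.48-fold and 1.43-fold, and its log2 signals went from 10.1, 9.23 and 9.53 to 10.7, 9.79 and 10.0. Its mean change was 0.54 (SE 0.12, adjusted p = 0.0090), and the 3 pairs were closer to each other than those of KIF2C. The 2 probes of KIF22 gave nearly the same signal on every array and are not independent readings. KIF18B, which shortens astral microtubules, was at 1.55-fold, 1.58-fold and 1.18-fold (mean change 0.51, SE 0.13, adjusted p = 0.021). Its 2 probes gave mean changes of 0.46 and 0.56. KIFC1, which walks to the minus end and gathers extra centrosomes into a pair of poles, was at 1.43-fold, 1.36-fold and 1.45-fold (mean change 0.50, SE 0.12, adjusted p = 0.013), with log2 signals of 10.3, 9.90 and 10.4 with DMSO and 10.9, 10.3 and 10.9 with the compounds.

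The mitotic kinesins that did not pass lay between mean changes of -0.41 and 0.26. KIF11, the motor that pushes spindle poles apart and the target of several experimental drugs, was at 1.06-fold, 1.26-fold and 0.863-fold (mean change 0.06, SE 0.14). KIF15, which can stand in for KIF11, was at 1.12-fold, 1.48-fold and 0.766-fold. KIF20A and KIF23, both needed for cytokinesis, were higher than DMSO in all 3 experiments, at 1.09-fold, 1.12-fold and 1.41-fold and at 1.08-fold, 1.22-fold and 1.26-fold, with adjusted p of 0.21 and 0.20. KIF4A, a chromokinesin, was lower in all 3, at 0.764-fold, 0.933-fold and 0.594-fold (mean change -0.41, SE 0.15, adjusted p = 0.073), and passed the test after quantile normalization, without the ET-770-DR experiment (mean change -0.57) and with a variance trend. Without the RM experiment its mean change was -0.24 (adjusted p = 0.19). Its nearly identical relative KIF4B has no probe of its own symbol and is not analysed here. KIF14 and KIF18A were also lower than DMSO with all compounds, by at most 0.32. KIF2B, which is made mainly in testis, had signals of 6.06 to 7.0 and a mean change of -0.11.

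Of the 11 other kinesins, 1 rose (9.09%, beside 13.1% of all genes) and 10 did not pass. KIF7, which organizes the tip of the primary cilium in Hedgehog signaling, had log2 signals of 7.98, 7.27 and 7.62 with DMSO and 8.39, 7.73 and 7.97 with the compounds. It was at 1.32-fold, 1.38-fold and 1.27-fold (mean change 0.40, SE 0.12, adjusted p = 0.036), and did not pass without the ET-770 or without the ET-770-DR experiment. KIF2A, a microtubule depolymerase of neurons and spindle poles, was at 0.994-fold, 1.00-fold and 0.826-fold. KIF24, which acts at the mother centriole, was at 1.32-fold, 1.72-fold and 0.766-fold, the widest spread of this group. The smallest mean changes were those of KIF26A, a kinesin without motor activity that acts in signaling (0.00, SE 0.14), and KIF27, a relative of KIF7 (-0.04, SE 0.16). KIF12, KIF19 and KIF25 had mean changes of 0.10, 0.07 and 0.05. KIF6 and KIF9, kinesins of motile cilia, lay under the background gauge, as did KIF5C and CENPV. Thus 55 of the 59 members had a mean signal at or above it.

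Of the 18 CENP genes, 7 rose, 2 fell and 9 did not pass the test, so that 38.9% rose beside 13.1% of all genes. At least 1 gene of each small complex described here rose. Passing the test in one subunit and not in another is no test of a difference between them. Subunits that carry other symbols are not among the members, so a complex is not always complete here. In the CENP-O complex, which recruits the mitotic kinase PLK1 through CENPU, the members CENPQ, CENPO and CENPU rose and CENPP fell. CENPQ had log2 signals of 9.42, 8.33 and 8.35 with DMSO and 10.5, 9.82 and 9.01 with the compounds. It was at 2.06-fold, 2.81-fold and 1.58-fold (mean change 1.07, SE 0.16, adjusted p = 0.0012). CENPO had 10.2, 9.40 and 9.87 with DMSO and 11.1, 10.2 and 10.6 with the compounds. All of its compound arrays lay above all of its DMSO arrays, and its mean change was 0.84 (SE 0.12, adjusted p = 0.00091). CENPU was at 2.06-fold, 2.11-fold and 1.11-fold (mean change 0.76, SE 0.18, adjusted p = 0.014). Its log2 signals were 9.36, 9.34 and 8.68 with DMSO and 10.4, 10.4 and 8.83 with the compounds, so that the RM pair hardly differed. Without the ET-770 experiment its mean change was 0.61 and did not pass (adjusted p = 0.057). CENPP, which joins CENPO in a heterodimer, had 8.11, 7.33 and 7.45 with DMSO and 7.15, 6.91 and 6.56 with the compounds. It was at 0.515-fold, 0.748-fold and 0.537-fold (mean change -0.76, SE 0.14, adjusted p = 0.0039), opposite to its partner in every experiment.

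Of the CENP-T-W-X histone fold proteins, which bind centromeric DNA and recruit the outer kinetochore, CENPT was at 1.73-fold, 1.71-fold and 1.6-fold (mean change 0.75, SE 0.12, adjusted p = 0.0017). CENPX, which also serves in the Fanconi anemia pathway, was at 1.51-fold, 1.62-fold and 1.36-fold and rose by 0.58, but did not pass without the ET-770 experiment. CENPW was at 1.61-fold, 1.54-fold and 1.04-fold and did not pass (adjusted p = 0.055), although it was higher than DMSO in all 3 experiments. Of the L and N pair, in which CENPN reads the centromeric nucleosome, CENPL rose by 0.60, at 1.44-fold, 1.75-fold and 1.37-fold, while CENPN was at 1.23-fold, 1.29-fold and 1.3-fold and did not pass (adjusted p = 0.061). CENPW and CENPN both passed with a variance trend and without the dimmest genes. Of the H, I, K and M complex, the backbone of the network, CENPM rose by 0.70, at 1.70-fold, 1.76-fold and 1.44-fold. The other three did not pass, and their values differed by compound. CENPH was at 1.48-fold, 1.88-fold and 0.856-fold, CENPK at 1.2-fold, 1.5-fold and 0.936-fold, and CENPI at 1.01-fold, 0.898-fold and 0.659-fold. CENPC, the scaffold that links the nucleosome to the kinetochore, had a mean change of 0.05 (SE 0.12).

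CENPE and CENPF, large proteins of the outer kinetochore, were lower than DMSO with every compound. CENPE, a kinesin by its motor domain that pulls chromosomes to the spindle equator, had log2 signals of 9.44, 8.91 and 8.78 with DMSO and 8.74, 8.70 and 8.26 with the compounds. It fell, at 0.615-fold, 0.865-fold and 0.695-fold (mean change -0.48, SE 0.14, adjusted p = 0.030), and did not pass without the ET-770 experiment. CENPF was at 0.886-fold, 0.822-fold and 0.849-fold and did not pass (adjusted p = 0.22). CENPB, which binds a short motif in satellite DNA, had a mean change of 0.02 (SE 0.12), and CENPV, at background, of -0.02 (SE 0.12).

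The compounds differed in sign for some members. Both ecteinascidins were above DMSO and RM below it for 8 of 59 members (13.6%) and for 7.86% of all genes. These were KIF11, KIF15, KIF20B, KIF1C, KIF24, CENPC, CENPH and CENPK, several of them named after their values were seen. Among them KIF20B, a kinesin of late cytokinesis, was at 1.04-fold, 1.71-fold and 0.944-fold. In the opposite pattern were 8 members and 16.3% of all genes. The median change of the CENP genes, in the order of the experiments, was 0.41, 0.60 and 0.10, where that of all genes with RM was 0.12. That of the mitotic kinesins was 0.12, 0.33 and 0.12. With 1 array per compound the spread of these values is unknown, and each compound was measured in an experiment of its own.

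The members also differed between the DMSO-treated cells of the 3 experiments. After quantile normalization of the 6 arrays, their values on the DMSO arrays spanned a median range of 0.41, beside 0.52 for all genes. CENPW spanned the most, with 7.37, 7.22 and 9.37 in the ET-770, ET-770-DR and RM experiments, followed by CENPL with 8.17, 7.41 and 9.27. Both were highest in the RM experiment. KIF18B was lowest there, with 9.90, 9.58 and 8.67, whereas KIF4A had 10.1, 10.0 and 11.1. These are differences between single vehicle arrays. The part that the compound array of the same experiment shares cancels in the changes, which were taken inside an experiment. The rest stays in them, and 1 array per arm cannot measure it.

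Other genes of the same machinery were counted in the same test. Of 44 further genes of the kinetochore and spindle, 12 rose (27.3%, beside 13.1% of all genes) and 0 fell (11.2% of all genes), with a median change of 0.20. The largest change was that of SKA1, a coupler of kinetochores to microtubules, at 2.08-fold, 2.85-fold and 1.42-fold (mean change 1.02, SE 0.18). MIS12 and ZWINT, also parts of the kinetochore, followed with mean changes of 1.00 (SE 0.12) and 0.98 (SE 0.12). Of 23 subunits and partners of dynein and dynactin, the motor that walks the other way, 1 rose and 4 fell (median -0.002). The 21.7% called were close to the 24.3% of all genes. BICD1, an adaptor that ties dynein to Golgi vesicles, was at 0.257-fold, 0.224-fold and 0.331-fold (mean change -1.91, SE 0.14, adjusted p = 2.3e-05). DYNC1I1, an intermediate chain, fell by 0.66 and PAFAH1B1, the dynein regulator LIS1, by 0.48. PAFAH1B1 did not pass without the ET-770 experiment (mean change -0.52, adjusted p = 0.14) or without the RM experiment (mean change -0.31, adjusted p = 0.080). Of 17 kinesin light chains and cargo adaptors, 4 rose (23.5%, beside 13.1% of all genes) and 5 fell (29.4%, beside 11.2% of all genes). In either direction 52.9% were called, beside 24.3% of all genes. TRAK1, which links KIF5 to mitochondria, fell by 1.43 (SE 0.13, adjusted p = 6.6e-05), KIFAP3, the non-motor subunit of kinesin-2, by 0.89 and RHOT1, the mitochondrial anchor of TRAK1, by 0.76. RHOT2, its relative, added here after its values were seen, was at 1.33-fold, 1.39-fold and 1.37-fold and rose by 0.45. The lengths of the genes in these lists were not set beside their changes.

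**Figure D3:**
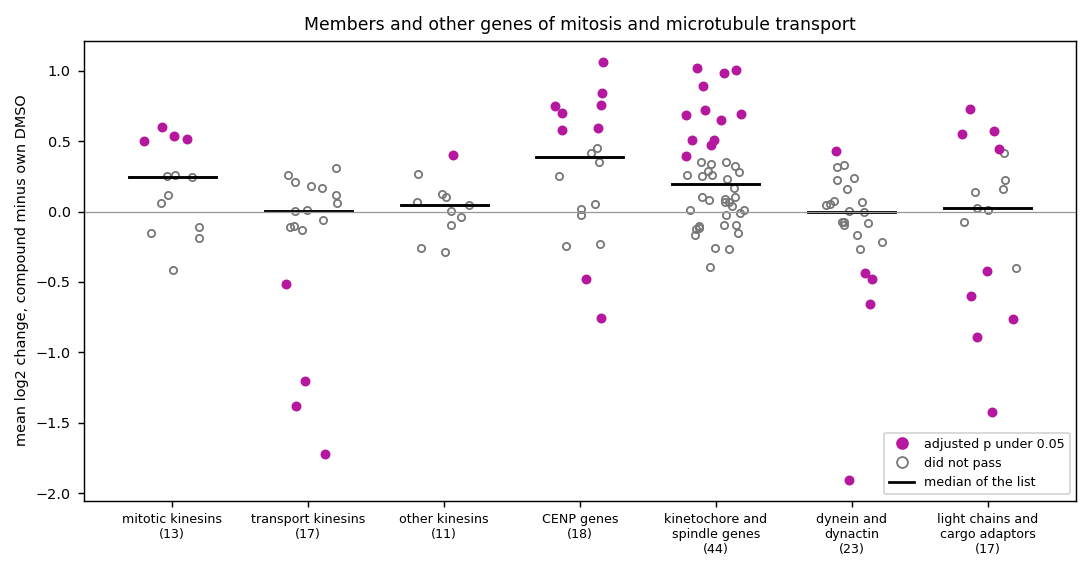
Mean log2 change over the 3 experiments for each gene of the 4 groups of members and of the 3 other lists, with the number of genes in parentheses. Filled points passed an adjusted p of 0.05, open points did not, and bars are medians. In the kinetochore and spindle list the 12 filled points all lie above 0, and among transport kinesins the 4 filled points all lie below it.

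Of the 6 members that fell, 5 were long genes. Gene lengths of all 59 members were taken from RefSeq (GRCh38.p14), while the annotation of the array names no build. Of the 14 members over 100 kb, 5 fell and 0 rose, and of the 45 shorter ones 1 fell and 12 rose. Over all genes, 47.7% of 3119 genes over 100 kb fell and 0.545% rose, and 3.75% of 15266 shorter genes fell and 15.6% rose. KIF13A spans 229 kb, KIF13B 196 kb, KIF16B 301 kb, KIF1B 171 kb and CENPP 295 kb, and CENPE, the shorter one that fell, 92.5 kb. The long members that did not pass included KIF26B with 554 kb (mean change -0.26), KIF6 with 395 kb, at background, and CENPW with 143 kb, whose mean change was 0.45. Of 8 transport kinesins over 100 kb 4 fell, and of 9 shorter ones 0 passed. Across members, which share the 6 arrays and are not independent replicates, the mean change and the logarithm of the length correlated at -0.54 (Pearson; Spearman -0.64, 59 genes). Across all 18385 genes with a length the values were -0.40 and -0.40. The limit of 100 kb was chosen with earlier results of these data known, and with 50 kb 6 of 31 long members fell and 0 rose.

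**Figure D4:**
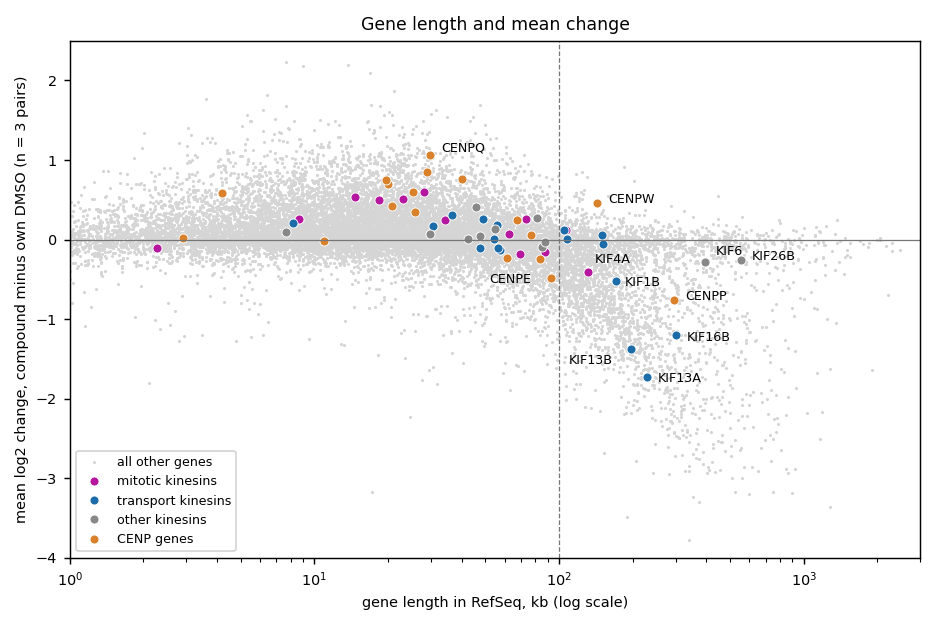
Mean log2 change over the 3 experiments (y axis) against gene length in RefSeq in kb on a log scale (x axis), for the members by group and for all other genes in grey. The dashed line marks 100 kb. KIF13A, KIF13B, KIF16B, KIF1B and CENPP lie to its right and below 0, with the grey cloud bending down there as well.

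Of the members, 48 matched a promoter in RefSeq (GRCh38.p14), where the first listed start of a gene was used. In the 250 bases before the start, CCAAT on either strand was found in 10 of 13 mitotic kinesins (76.9%), 8 of 15 CENP genes (53.3%), 3 of 12 transport kinesins (25.0%) and 3 of 8 other kinesins, beside 33.0% of 27305 promoters of the same length. A CHR, taken as TTTGAA or TTCGAA on either strand, was found in 6 of the 13 mitotic kinesins (46.2%), 1 of the CENP genes and 1 of the transport kinesins, beside 14.6% of all. An E2F motif, taken as TTTCCCGC or TTTGGCGC on either strand, was found in 2 members and in 1.96% of all. No motif of one kind holds the letters of another. Of the 10 members that rose and have a promoter here, 6 hold CCAAT (60.0%) and 1, KIF22, a CHR (10.0%). Of the 33 that did not pass, 17 hold CCAAT (51.5%) and 7 a CHR (21.2%). Of the 5 that fell, 1 holds CCAAT and 0 a CHR. The mitotic kinesins with a CHR were KIF11, KIF15, KIF18A, KIF22, KIF23 and KIF4A.

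The gaps shown at the start belong to genes read head to head, with starts at most 1000 bases apart. There were 15 members with such a measured neighbour, and 4 of these members passed the test, beside 24.3% of all genes. How many of all genes have such a neighbour, or pass together with it, was not counted. CENPP and NOL8, a nucleolar protein of ribosome assembly, start 118 bases apart. NOL8 rose, with changes of 0.61, 1.11 and 0.27 (mean 0.66, SE 0.16, adjusted p = 0.016), while the changes of CENPP were -0.96, -0.42 and -0.90. CENPQ and MMUT, a mitochondrial mutase, start 117 bases apart, and the changes of MMUT were -0.25, -0.26 and -0.51 (adjusted p = 0.081). CENPO and PTRHD1 start 34 bases apart, and PTRHD1 had a mean change of 0.07 (SE 0.12) while CENPO rose. CENPX and LRRC45, a centrosomal linker, start 427 bases apart, and both rose, LRRC45 by 0.41. Both neighbours passed the test in 2 of these 4 pairs, in the same direction for CENPX and in opposite directions for CENPP.

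**Figure D5:**
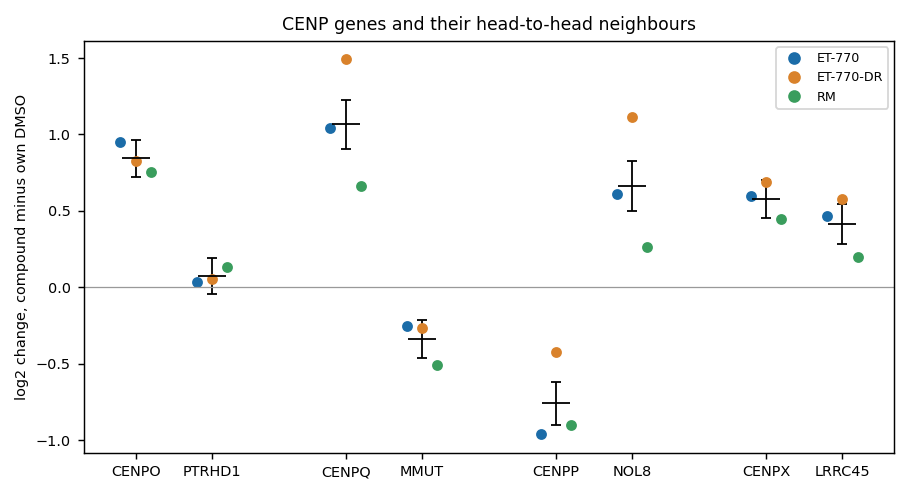
Log2 change of the 4 CENP genes that passed the test and have a head-to-head neighbour on the array, each beside that neighbour. Dots are single compounds against their own DMSO array, bars the mean over 3 experiments and whiskers its moderated SE. CENPP lies below 0 and NOL8 above it with every compound.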

How the data were processed

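Gene expression in U373MG cells was measured on 6 Human Gene 1.0 ST arrays, 1 per sample. The authors normalized the scanned arrays by RMA in Affymetrix Expression Console and deposited log2 signals for 33297 probes. Whether all arrays were normalized together is not given in the sources used here. By the platform annotation 19460 probes name 1 gene, 1754 several and 12083 none. Only the first kind was used, and probes of a gene were averaged. Of the probes not used, 7 carry a member symbol beside others. Arrays have no sequencing depth, and their number limits the precision.

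Each compound array was paired with the DMSO array that the labels name as its control. After treatment means were removed, the deviations of same-experiment arrays correlated at 0.83, 0.69 and 0.82 and those of other arrays at -0.676 to 0.241. With a mean over 3 arrays taken out, positive values of the first kind force negative ones among the second. Part of this contrast is therefore built in. limma 3.58.1 (R 4.3.3) gave the shared response (treatment and experiment as terms, eBayes without trend, Benjamini-Hochberg over 18417 genes, two-sided). The fit was also run on simulated data with 200 changed genes. Each of these had the same change in every pair, and far more genes passed in the real data. The simulation therefore cannot show how the fit behaves with 3 different compounds. p-values rest on the spread between these 3 pairs, which limma moderates with that of all genes. A gene whose own pairs lie close together, such as KIF22, therefore still had an SE of 0.12. Folds past 3 were counted as in the methods of the study. Alternatives were no block, quantile normalization, leaving out each experiment, the brightest probe, a filter on dim genes, a variance trend, the mean DMSO array as control and a 2-fold threshold. Python 3.11.15 was used elsewhere. No protein table was used, so protein features planned at the start were not analysed here.

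The members and lists were chosen with earlier results of these data known. Genes were named by a rule: members past 3-fold, in each group the 4 largest changes that passed and the 2 smallest changes, KIF4A with KIF4B, and the 3 largest of each comparison list. Other members were named to account for their complex or family after their values were seen.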

Additional observations from a re-analysis of the deposited data

How the results depend on the processing

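All 18 members that passed kept their direction in the shared response without the block, after quantile normalization, without each experiment, with the brightest probe, without dim genes and with a variance trend, and all 18 also kept their call in 5 of these 8 alternatives. Without the replicate block, which ignores the pairing by experiment, 1 member (KIF13A) kept its call. Then 0 members rose and 1 fell, with 0 mitotic, 1 transport and 0 other kinesins and 0 CENP genes called, beside 0 kinetochore and spindle genes, 1 of dynein and dynactin and 0 adaptors, while 395 of all genes passed, against 4471 with it. Leaving out 1 experiment gave 5 to 18 members that rose and 4 to 7 that fell, with 0 to 6 mitotic kinesins, 3 to 4 transport kinesins, 0 to 3 other kinesins and 6 to 12 CENP genes called. The number called moved over all genes too. Of 18417 genes 2705 passed without the ET-770 experiment, 3452 without the ET-770-DR experiment and 6141 without the RM experiment. The low ends came without the ET-770 experiment, where CENPE, CENPU, CENPX, KIF18B, KIF1B, KIF22, KIF2C, KIF7 and KIFC1 lost their calls. Without the ET-770-DR experiment KIF18B and KIF7 lost theirs. Without the RM experiment none did, and CENPH, CENPK, CENPW, KIF15, KIF20B, KIF24 and KIF6 passed as well. Fewer arrays remain in these fits. Without the ET-770 experiment each gene named by the rule had the same SE, 0.233, so that a lost call there is not by itself a smaller change. The 3-fold count of 1 member for each compound became 2 with ET-770 and 0 with RM after quantile normalization, 0 with RM against the mean of the DMSO arrays, and 5, 4 and 3 at 2-fold. Against that mean the 1 member with ET-770 was over 3-fold rather than under it. Single-gene values were recomputed for the genes named by the rule, not for the other members, and the comparison lists only without the block. Among the former, 8 means between -0.11 and 0.06 changed sign. Quantile normalization gave -0.0112 for KIF11, -0.045 for KIF1A, -0.0387 for KIF21B, -0.0327 for KIF26A and -0.0417 for CENPB. With 1 experiment left out, the range was -0.0672 to 0.203 for KIF11, -0.222 to 0.0056 for KIF2B, -0.138 to 0.129 for KIF1A, -0.122 to 0.108 for KIF21B, -0.153 to 0.114 for KIF26A, -0.248 to 0.154 for KIF27, -0.0344 to 0.0539 for CENPB and -0.101 to 0.0302 for CENPV. The causes were not tested.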
